A study of Mus musculus with 23 samples.

Results

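The 10 genes described here encode 5 ephrins (Efna1, Efna4, Efna5, Efnb1 and Efnb2) and 5 Eph receptors (Epha2, Epha4, Ephb2, Ephb3 and Ephb4). They were chosen by name, as the genes to which the RefSeq transcript of a non-control probe belonged, out of 20145 named genes on the array. Together they had 12 probes, with 2 each for Efnb2 and Ephb4 and 1 for each of the other 8 genes. TM4 cells, a mouse line of immortalized Sertoli cells, were treated for 48 hr with 100 µM of a plasticizer in 1% DMSO, or with 1% DMSO alone, which all treated cells also received. The compounds were MEHP (the phthalate monoester that is the active metabolite of DEHP), DINCH (a cyclohexane dicarboxylate diester), DOM (dioctyl maleate), BDB (butanediol dibenzoate) and DOS (dioctyl succinate). There were 23 samples, each on its own 1-colour Agilent array, with 3 for DOS and 4 in every other group. All samples came from 1 cell line, and the labels did not say whether replicates were separate cultures, so the p-values measure only the spread between these samples.

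Ephrins are ligands anchored in the cell membrane, and Eph receptors are receptor tyrosine kinases on neighbouring cells. A-type ephrins are held by a lipid anchor and mostly bind EphA receptors, while B-type ephrins cross the membrane and mostly bind EphB receptors, with EphA4 able to bind both. Contact signals in both directions, forward through the receptor and in reverse through the ephrin, and largely acts on the cytoskeleton and on cell adhesion and repulsion. Sertoli cells form the epithelium of the seminiferous tubule, whose junctions hold the germ cells and make up the blood-testis barrier.

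Levels are given as log2 of the processed intensity relative to the 75th percentile of the same array, so a level of 0 equals that percentile. A gene was called when the moderated test of limma gave a Benjamini-Hochberg adjusted p below 0.05 and the change exceeded 1.5-fold. Where a gene had several probes, its value is that of the brightest. The 75th percentile of the processed intensity ranged from 205 to 351 over the 23 arrays, and 43.4% to 52.2% of spots were well above background. The hybridizations were spread over 3 slides. DMSO shared its slide rows with DOM and DOS, whereas MEHP, DINCH and BDB lay in the remaining rows, so for these compounds the row and the treatment cannot be told apart in the comparison with DMSO. The same 4 DMSO arrays served all 5 comparisons with DMSO. Of 15 Sertoli cell markers on the array, 8 were well above background on every DMSO array, among them Gata4, Sox9 and Inhbb. The defining markers Wt1, Fshr and Cldn11 were above background on no array. Some markers of other cell types were also well above background on every DMSO array. They were 4 of 6 for mesenchymal cells (Acta2, Tagln, Col1a1 and Pdgfra), 2 of 4 for endothelial cells (Pecam1 and Kdr), Cyp17a1 of Leydig cells, Prm1 of germ cells and Csf1r of macrophages.

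Of the 10 genes, 9 were well above background on all 23 arrays and were tested in every comparison, and Epha4 was not tested. In the 5 comparisons with DMSO, 3 of 45 tests of the members passed the call: Efnb2 fell with DINCH, and Efna4 and Efna5 rose with DOM. In bulk RNA, fewer cells that express a gene and less of its RNA per cell cannot be told apart, which holds for each change given here. Among the members, 1 of 9 tested genes was called with DINCH, or 11.1%, beside 8.26% of the 11912 named genes tested in that comparison. That gene, Efnb2, had been listed by the study for DINCH from these same samples, so this share is not independent evidence. With MEHP none of 9 was called by limma, against 1.68% of named genes, while 2 members had an unadjusted p below 0.05, as did 16.2% of probes. With DOM 2 of 9 were called, or 22.2%, beside 20.5% of named genes. The share of members called was thus close to the background for DOM. With BDB and DOS no member and no named gene was called by limma. At an unadjusted p below 0.05 there were 2 members with BDB, against 14.4% of probes, and 0 members with DOS, against 7.13% of probes. The median log2 fold change of the 9 members was -0.06 with DINCH, -0.02 with MEHP and -0.03 with DOM, where that of all named genes was -0.000663, -0.01 and -0.03.

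The promoter windows of Efnb2, Efna4 and Efna5 are shown because these were the members that changed. The sequences are from RefSeq (assembly GRCm38.p6), run on the strand of the gene from 250 bases before its start to 50 bases after, and GC boxes (GGGCGG or its reverse complement CCGCCC) are in capitals. Efnb2 lies at chr8:8661193-8661492, Efna4 at chr3:89337979-89338278 and Efna5 at chr17:62881268-62881567, all on the minus strand.
Efnb2: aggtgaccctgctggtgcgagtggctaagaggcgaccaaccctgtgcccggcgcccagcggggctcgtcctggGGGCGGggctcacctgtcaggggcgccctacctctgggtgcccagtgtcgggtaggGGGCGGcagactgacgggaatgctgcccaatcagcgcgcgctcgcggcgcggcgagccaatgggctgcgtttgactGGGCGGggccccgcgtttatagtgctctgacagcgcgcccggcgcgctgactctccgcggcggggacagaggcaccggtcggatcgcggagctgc
Efna4: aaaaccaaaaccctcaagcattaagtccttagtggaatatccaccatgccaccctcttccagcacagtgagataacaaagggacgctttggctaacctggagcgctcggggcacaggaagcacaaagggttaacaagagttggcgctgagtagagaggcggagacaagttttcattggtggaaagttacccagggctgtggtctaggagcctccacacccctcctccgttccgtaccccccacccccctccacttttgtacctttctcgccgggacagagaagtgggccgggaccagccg
Efna5: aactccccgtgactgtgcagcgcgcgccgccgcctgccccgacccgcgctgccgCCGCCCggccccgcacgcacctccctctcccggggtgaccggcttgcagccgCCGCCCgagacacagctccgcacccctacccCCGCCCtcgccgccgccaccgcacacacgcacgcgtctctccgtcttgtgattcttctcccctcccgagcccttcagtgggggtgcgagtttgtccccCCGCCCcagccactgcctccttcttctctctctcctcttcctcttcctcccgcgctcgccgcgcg

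The Efnb2 window was 72.3% G or C and held 3 GC boxes, and the Efna5 window was 73.3% G or C and held 4. The Efna4 window was 55.7% G or C and held none. Over all 32851 promoter windows of that length, 35.7% held a GC box on either strand. The core of the antioxidant response element (TGACNNNGC, either strand) was found 3 times in the Efnb2 window, 1 time in the Efna5 window and not in the Efna4 window, against 12.4% of all windows with at least 1 match. The AP-1 core TGANTCA, present in 7.81% of all windows, was in none of the 11 windows of the 10 genes. The median G or C content of these 11 windows was 64.0%, and that of all windows was 52.7%. These matches describe letters in the windows, and binding was not measured.

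Among the tested members the largest difference was that of Efnb2, which encodes ephrin-B2, the ligand best known for its exchange with EphB4 between arteries and veins. With DMSO, the Efnb2 level was 0.78, 1.00, 1.30 and 1.12 in replicates 1 to 4. With DINCH it was -1.12, -0.45, -0.24 and -0.43, so every DINCH array lay below every DMSO array. The log2 fold change was -1.61 (SE 0.19, 95% interval -2.04 to -1.17, n = 4 against 4, limma adjusted p = 0.00363), or 3.04-fold lower. Within slides the difference was -1.89 on slide 1, -1.60 on slide 2 and -1.45 on slide 3. Only 2 of the 4 DINCH arrays and 3 of the 4 DMSO arrays had every extraction measure in range, and over these arrays the log2 fold change was -1.36 with a limma adjusted p of 0.0686.

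With MEHP the Efnb2 level was 0.32, 0.66, 0.42 and 0.33. All 4 MEHP arrays lay below all 4 DMSO arrays, and above all 4 DINCH arrays. Against DMSO the log2 fold change was -0.61 (SE 0.13, n = 4 against 4), and the limma adjusted p of 0.0501 missed the threshold. Of 20 alternative fits 4 passed the call, among them that without DMSO replicate 1 (-0.70, limma adjusted p = 0.0337). The other 16 did not pass, with a limma adjusted p of up to 0.322. The BDB arrays, in the same slide rows as MEHP and DINCH, had Efnb2 levels of 0.55, 0.79, 0.75 and 0.64, which overlapped those of DMSO at replicate 1 of DMSO, and the log2 fold change was -0.37 (SE 0.12, limma adjusted p = 0.209).

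With DOM the Efnb2 level was 0.24, 1.46, 1.51 and 0.81, the widest spread of any group for this gene, with replicates both above and below the DMSO arrays. The log2 fold change of -0.04 (95% interval -0.65 to 0.57) had a limma adjusted p of 0.921. With DOS the level was 0.88, 1.37 and 1.34, and the log2 fold change was 0.15 (limma adjusted p = 0.923). From the highest to the lowest group mean the order was DOS, DMSO, DOM, BDB, MEHP and DINCH, and among neighbours in this order the arrays overlapped except for MEHP and DINCH. A dimmer second probe of Efnb2 was well above background on 10 of the 23 arrays, on 3 of 4 with DMSO, 1 of 4 with DINCH and none with MEHP, and was not tested. By this probe the mean MEHP level was at least 1.66-fold lower than the mean with DMSO, a limit taken over all 4 arrays of each group. It is no minimum for single arrays, since DMSO replicate 1 was itself below background at -4.60 and MEHP replicate 3 was higher at -4.19. The mean of this probe was -4.74 with MEHP and -4.66 with DINCH, both near background, so it did not separate MEHP from DINCH.

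**Figure D1:**
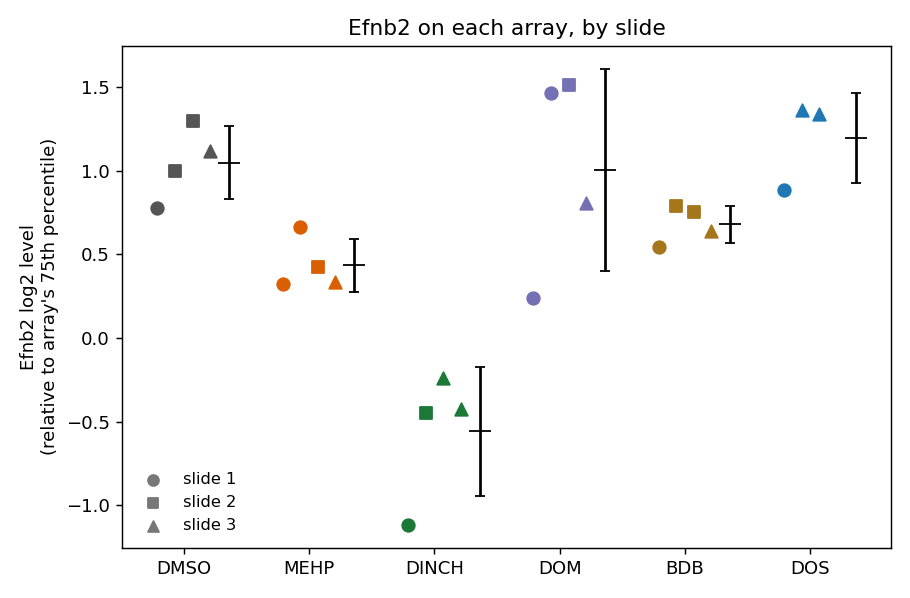
Efnb2 level on each array (y axis, log2 relative to the array's 75th percentile) by treatment, with point shape for the slide and the bar for the group mean ± SD. The 4 DINCH arrays lie between -1.12 and -0.24, below all other arrays, on every slide.

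The other B-type ephrin among the members, Efnb1, encodes ephrin-B1, which guides sorting of cells at tissue boundaries. Its group means lay between -0.52 and -0.41, and no group was separated from DMSO. With DMSO the level was -0.26, -0.46, -0.43 and -0.47, and with DINCH it was -0.67, -0.44, -0.34 and -0.44. With DINCH the log2 fold change was -0.07 (95% interval -0.30 to 0.17), an interval that leaves out the change seen for Efnb2. Against DMSO the other Efnb1 values ran from -0.12 with MEHP to -0.02 with BDB.

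Efna4 encodes ephrin-A4, a ligand of EphA receptors. With DMSO its level was -0.21, 0.20, 0.21 and 0.49, and with DOM it was 0.81, 0.93, 0.58 and 1.08. All 4 DOM arrays lay above all 4 DMSO arrays. The log2 fold change was 0.68 (SE 0.16, 95% interval 0.31 to 1.05, n = 4 against 4, limma adjusted p = 0.0129), or 1.60-fold higher. Within slides it was 1.08, 0.38 and 0.60 on slides 1, 2 and 3. The lowest DMSO array was replicate 1, and without it the log2 fold change was 0.55 with a limma adjusted p of 0.0272, below the 1.5-fold limit. With the other compounds Efna4 differed from DMSO by -0.16 (BDB) to 0.26 (DOS) on the log2 scale, with limma adjusted p of 0.523 or more.

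Efna5 encodes ephrin-A5, a ligand best known for guiding axons. Its DMSO levels were 2.37, 2.04, 2.13 and 1.62, with replicate 4 the lowest. With DOM they were 2.78, 2.53, 2.51 and 2.80, again with every DOM array above every DMSO array. The log2 fold change was 0.61 (SE 0.16, 95% interval 0.25 to 0.98, n = 4 against 4, limma adjusted p = 0.0186), or 1.53-fold higher. Within slides it was 0.29, 0.42 and 1.17 on slides 1, 2 and 3. Leaving out DMSO replicate 4 gave 0.47 (limma adjusted p = 0.0302), leaving out DOM replicate 1 gave 0.57 (0.0439) and leaving out DOM replicate 4 gave 0.57 (0.0513), and none of these passed the call. Nor did the value of 0.48 over the arrays with every extraction measure in range (limma adjusted p = 0.0928). With MEHP the levels were 2.47, 2.38, 2.49 and 2.30, and the log2 fold change was 0.37 (SE 0.15, limma adjusted p = 0.263).

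Efna1, the remaining A-type ephrin, encodes a ligand that binds EphA2 with high affinity. Its DMSO levels were 1.65, 2.00, 1.71 and 1.86. With DINCH they were 2.29, 2.06, 2.06 and 2.34, above all DMSO arrays, and the log2 fold change was 0.38 (SE 0.12, limma adjusted p = 0.0687). With BDB they were 1.45, 1.48, 1.48 and 1.42, below all DMSO arrays and with the narrowest spread of the groups, and the log2 fold change was -0.35 (SE 0.10, limma adjusted p = 0.150). Neither passed the test. Groups that did not overlap were frequent over the array. They made up 24% of named genes for DINCH and 39.4% for DOM, beside 2 of the 9 members in each. For MEHP they were 14.4% beside 1 member, for BDB 12% beside 1 member, and for DOS 8.14% beside 0 of the 9 tested members.

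**Figure D2:**
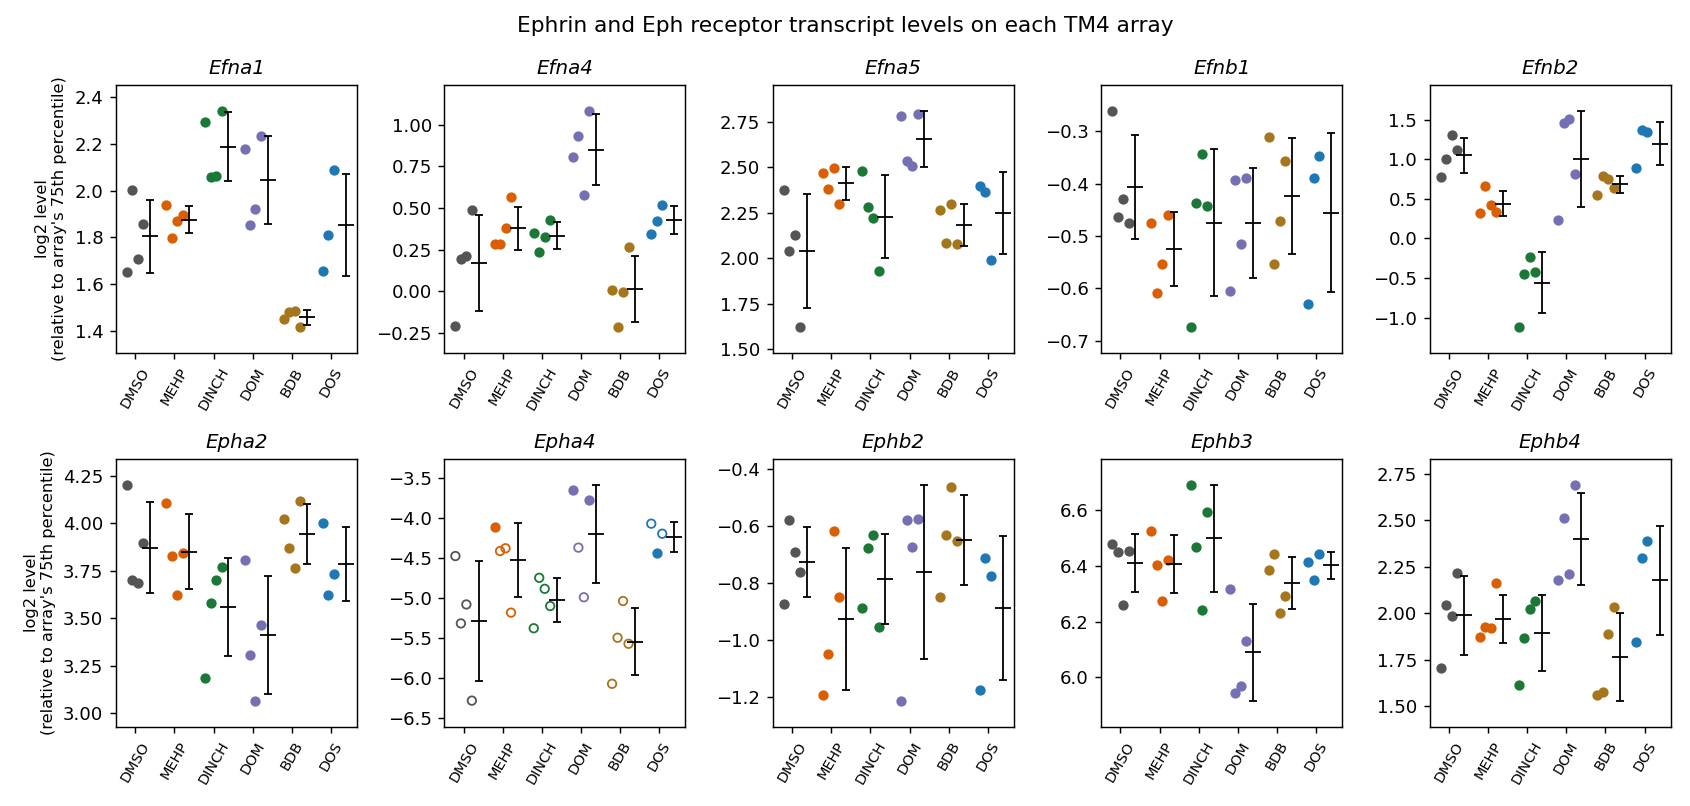
Level of each of the 10 genes on each array (y axes, log2 relative to the array's 75th percentile, scaled separately for each gene) by treatment. Filled points were well above background, open points were not, and bars are the group mean ± SD. Efnb2 is lowest with DINCH, and Efna4 and Efna5 are highest with DOM.

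Among the A-type receptors, Epha2 encodes a receptor of epithelial cells. Its DMSO levels were 4.20, 3.70, 3.69 and 3.89, and with DOM they were 3.81, 3.31, 3.07 and 3.46. Replicate 1 was the highest in both groups, and the groups overlapped. With DOM the log2 fold change was -0.46 (SE 0.18, 95% interval -0.86 to -0.06, limma adjusted p = 0.0765). Of 21 alternative fits only 1 passed the call, that without DOM replicate 1 (-0.59, limma adjusted p = 0.0254). The other 20 did not pass, with log2 fold changes as small as -0.31 and a limma adjusted p of up to 0.374. With DINCH the log2 fold change was -0.31 (limma adjusted p = 0.266), and with the other compounds it lay between -0.08 and 0.07.

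Epha4, the receptor that binds ephrins of both types, was near background. It was well above background on 4 of the 23 arrays, namely MEHP replicate 1, DOM replicates 1 and 4 and DOS replicate 3, and on no DMSO, DINCH or BDB array. No test was made, and a difference was not measurable at this brightness. The DOM levels of -3.66, -4.37, -4.99 and -3.78 overlapped the DMSO levels of -4.48, -5.32, -5.08 and -6.28. The DOS levels of -4.07, -4.44 and -4.20 lay above all DMSO levels, though only replicate 3 of DOS was well above background.

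Of the B-type receptors, Ephb3 had DMSO levels of 6.48, 6.45, 6.26 and 6.45. With DOM they were 6.32, 5.94, 5.97 and 6.13, so that 3 of the 4 DOM arrays lay below all DMSO arrays. Against DMSO this was a log2 fold change of -0.32 (SE 0.11, limma adjusted p = 0.0574) and did not pass the test. Ephb2, known with Ephb3 for positioning cells in the intestinal crypt, had log2 fold changes between -0.20 and 0.08 with the 5 compounds, none of which passed the test.

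Ephb4 encodes the receptor of ephrin-B2. By its brightest probe the DMSO levels were 1.70, 2.04, 1.99 and 2.22 and the DOM levels 2.18, 2.51, 2.21 and 2.69, and these overlapped. This was a log2 fold change of 0.41 (SE 0.15, limma adjusted p = 0.0702). By the second probe the DMSO levels were -0.43, -0.25, -0.19 and 0.03 and the DOM levels 0.24, 0.39, 0.10 and 0.50, which did not overlap. There the log2 fold change of 0.52 (SE 0.13, limma adjusted p = 0.0154) passed the test and was under 1.5-fold. Both probes had a positive difference with DOM, and only the second passed the threshold of p. With DINCH, where Efnb2 fell, the log2 fold change of Ephb4 was -0.10 (95% interval -0.42 to 0.22) by the brightest probe. By the second probe it was 0.05 (95% interval -0.24 to 0.34).

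**Figure D3:**
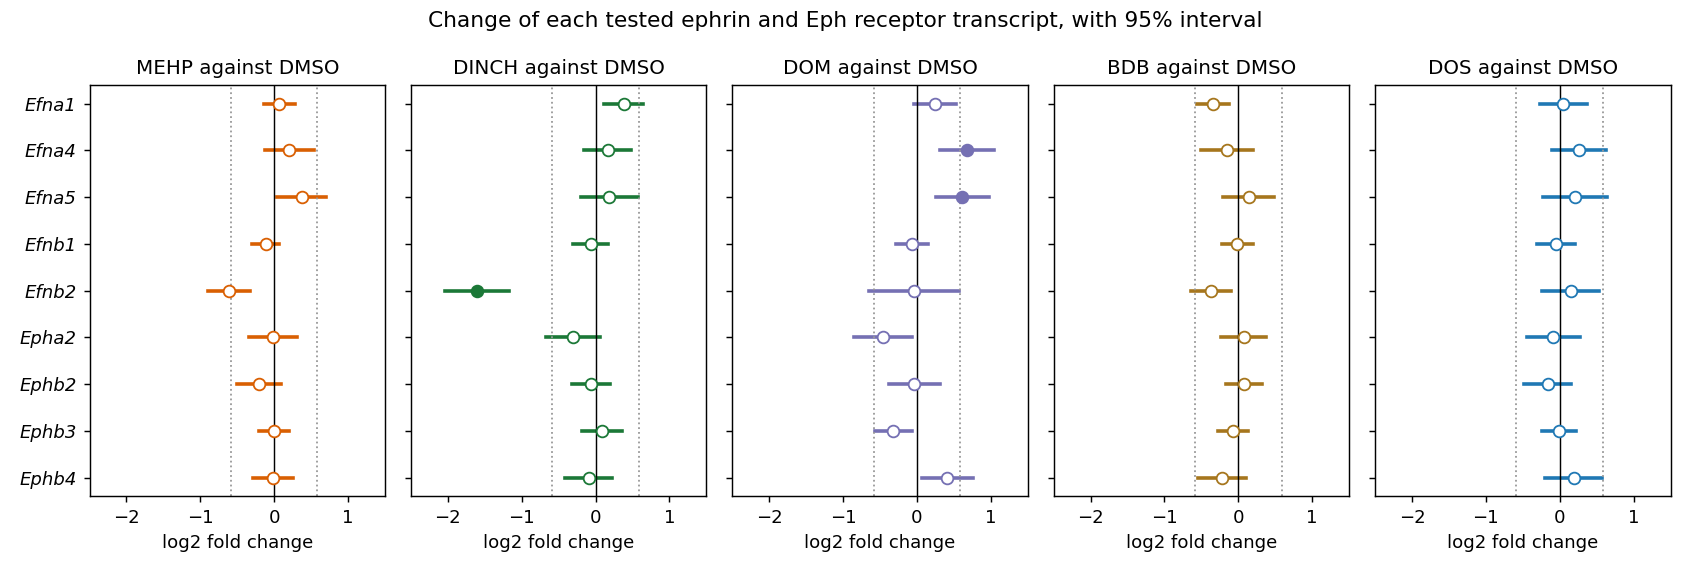
Log2 fold change of the 9 tested genes against DMSO (x axis) with its 95% interval, 1 panel for each compound. Filled points passed the call, dotted lines mark 1.5-fold, and the 3 filled points are Efnb2 with DINCH at -1.61 and Efna4 and Efna5 with DOM at 0.68 and 0.61.

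DOM and DOS are dioctyl diesters that differ in a double bond, which the maleate has and the succinate lacks, and their arrays shared slide rows. This pair and MEHP against DINCH were compared directly, at the same dose and time, with p-values adjusted over the probes of the 2 comparisons together. No member was called by limma between DOM and DOS, against 13.9% of named genes, while 3 members had an unadjusted p below 0.05, as did 35.4% of probes. Efna4 was 0.42 higher with DOM (95% interval 0.11 to 0.73, limma adjusted p = 0.0884), the DOS levels being 0.35, 0.42 and 0.52. Efna5 was 0.41 higher (95% interval 0.08 to 0.73, limma adjusted p = 0.110), the DOS levels being 2.40, 2.36 and 1.99. In both, every DOM array lay above every DOS array, as in 3 of 9 members for either direction and 38.6% of named genes. Ephb3 was the other of these 3, with a difference of -0.31 (95% interval -0.59 to -0.03, limma adjusted p = 0.143). The second probe of Ephb4 was 0.48 higher with DOM (SE 0.12, limma adjusted p = 0.0413), under 1.5-fold. For Efnb2 the interval of the difference, -0.89 to 0.51, was too wide to separate the pair.

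MEHP is a monoester of an aromatic acid and DINCH a diester of a saturated ring acid, and these arrays also shared slide rows. Efnb2 was the only member called between them, 1 of 9 beside 3.25% of named genes. The arrays of the pair did not overlap for 2 of 9 members and for 17.1% of named genes. It was 0.99 higher with MEHP (SE 0.18, 95% interval 0.59 to 1.40, n = 4 against 4, limma adjusted p = 0.0113), or 1.99-fold. Within slides the difference was 1.61, 0.87 and 0.67 on slides 1, 2 and 3. Over the arrays with every extraction measure in range it was 0.77 with a limma adjusted p of 0.0954. Efna1 was lower with MEHP by -0.31 (95% interval -0.53 to -0.09, limma adjusted p = 0.0738). The other 7 tested members differed by -0.14 to 0.29, with limma adjusted p of 0.244 or more.

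**Figure D4:**
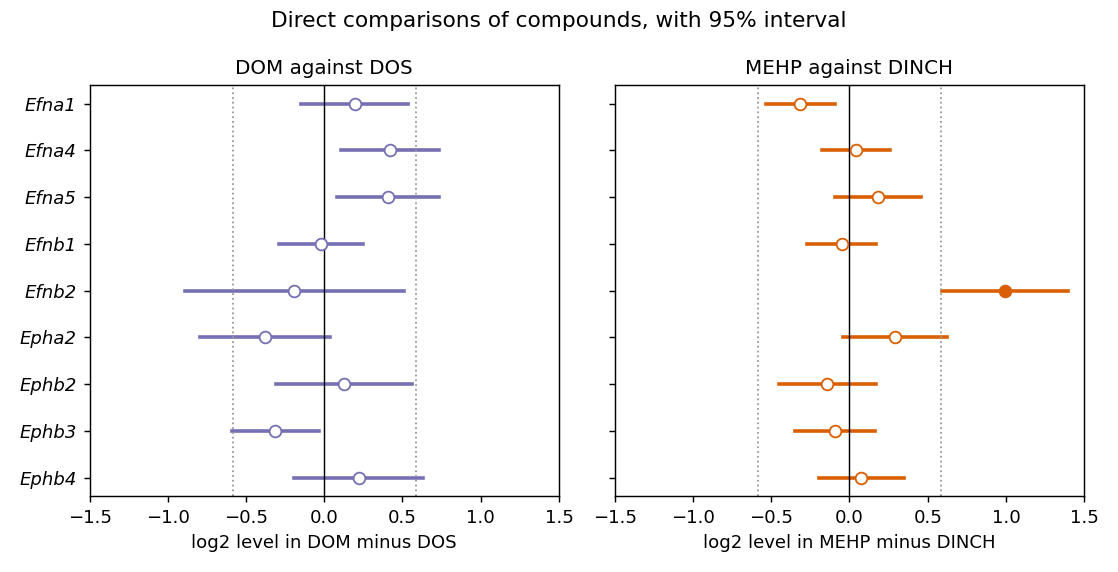
Difference in log2 level between DOM and DOS and between MEHP and DINCH (x axes) with its 95% interval for the 9 tested genes. Filled points passed the call and dotted lines mark 1.5-fold. The only filled point is Efnb2, 0.99 higher with MEHP than with DINCH.

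The rest of the family was examined as a list of 12 further ephrins and Eph receptors. Efna2, Efna3, Epha5 and Ephb6 were well above background on all 23 arrays, Efnb3 on 22 and Epha1 on 20. Epha3, Epha6, Epha7, Epha8, Epha10 and Ephb1 were above background on none. Of the 6 tested, only Efnb3 was called in any comparison with DMSO. Efnb3, which encodes the third B-type ephrin, fell by 0.87 on the log2 scale with DINCH (SE 0.17, limma adjusted p = 0.0150). It was above background on 3 of 4 DINCH arrays, and so entered this test through DMSO alone, the group where it was higher. The study drew Efnb2 and Efnb3 into a pathway list from these same samples, as it did Ngef, Rras, Mras, Sh2d3c and Itsn1 below, so their directions are not independent evidence.

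Signalling partners were taken from lists of adaptors, kinases and phosphatases, of small GTPases with their regulators and effectors, of PDZ and reverse-signalling partners, and of sheddases. With the 12 family genes these made 69 genes. With DINCH 4 of the 54 tested rose and 3 fell, or 13% called beside 8.26% of named genes. All of these but Fyn had been listed by the study for DINCH from these same samples, so this share is not independent evidence. Sdcbp, also listed by the study, was not called. The median log2 fold change of the tested list genes was -0.06, and that of all named genes was -0.000663. Ngef, which encodes ephexin, a guanine nucleotide exchange factor that acts below EphA receptors, rose by 1.71 (SE 0.18, limma adjusted p = 0.00300). Mras and Rras, small GTPases of the Ras family, rose by 0.89 and 0.63 (limma adjusted p = 0.00914 and 0.0182). Sh2d3c, an adaptor that binds Eph receptors, rose by 0.73 (limma adjusted p = 0.00914). Fyn, a Src family kinase, fell by 1.01 (SE 0.23, limma adjusted p = 0.0251). Itsn1, an exchange factor for Cdc42 with several probes, fell by 0.64 by 1 of its dimmer probes (limma adjusted p = 0.00965), while the brightest gave 0.04 (limma adjusted p = 0.877).

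With MEHP 1 of the 56 tested list genes was called, or 1.79% beside 1.68% of named genes. It was Ngef, which rose by 1.31 (SE 0.21, limma adjusted p = 0.0201). With DOM its log2 fold change was -0.48 (limma adjusted p = 0.155). Between MEHP and DINCH, Fyn was called and was 0.80 higher with MEHP (SE 0.21, limma adjusted p = 0.0448).

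With DOM 6 of 55 tested list genes rose and 3 fell, or 16.4% beside 20.5% of named genes, and the median log2 fold change of the tested list genes was 0.04. Rgs3, which dampens G protein signals and binds the tail of B-type ephrins, rose by 0.96 (SE 0.18, limma adjusted p = 0.00376), and by 0.69 by its second probe. Pick1, a PDZ protein that binds ephrins and Eph receptors, rose by 0.61 (limma adjusted p = 0.0177), and Mmp14, a membrane-bound metalloproteinase, by 0.59 (limma adjusted p = 0.0312). Rras2, a Ras family GTPase, fell by 1.29 (SE 0.19, limma adjusted p = 0.00148), and Fyn fell by 0.59 (limma adjusted p = 0.0214). The other 4 were called by a probe that was not the brightest. Abl1, a tyrosine kinase, rose by 0.99 by a dim probe, while its brightest gave 1.32 with a limma adjusted p of 0.274. Crk, an adaptor, fell by 0.87 by its second probe, while the brightest gave 0.04. Sipa1l1, a regulator of Rap GTPases, rose by 0.66 by its second probe, against 0.11 by the brightest. Kalrn, a guanine nucleotide exchange factor, was at least 1.65-fold higher by a probe that was well above background on all DOM arrays and no DMSO array, and so entered the test through DOM alone, while its brightest probe gave -0.31 (limma adjusted p = 0.436).

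Between DOM and DOS, 7 of the 55 tested list genes were called, or 12.7% beside 13.9% of named genes. Rgs3 (0.66), Mmp14 (0.66) and Sh2d3c (0.80) were higher with DOM and Rras2 (-0.80) was lower, with limma adjusted p of 0.0449, 0.0384, 0.0175 and 0.0319. Kalrn and Abl1 were higher and Crk lower by probes that were not the brightest. With BDB and DOS none of the 54 tested list genes was called by limma, and 13 and 6 of them had a probe at an unadjusted p below 0.05. Over all named genes the same counts were 2277 of 11968 with BDB and 923 of 11935 with DOS.

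**Figure D5:**
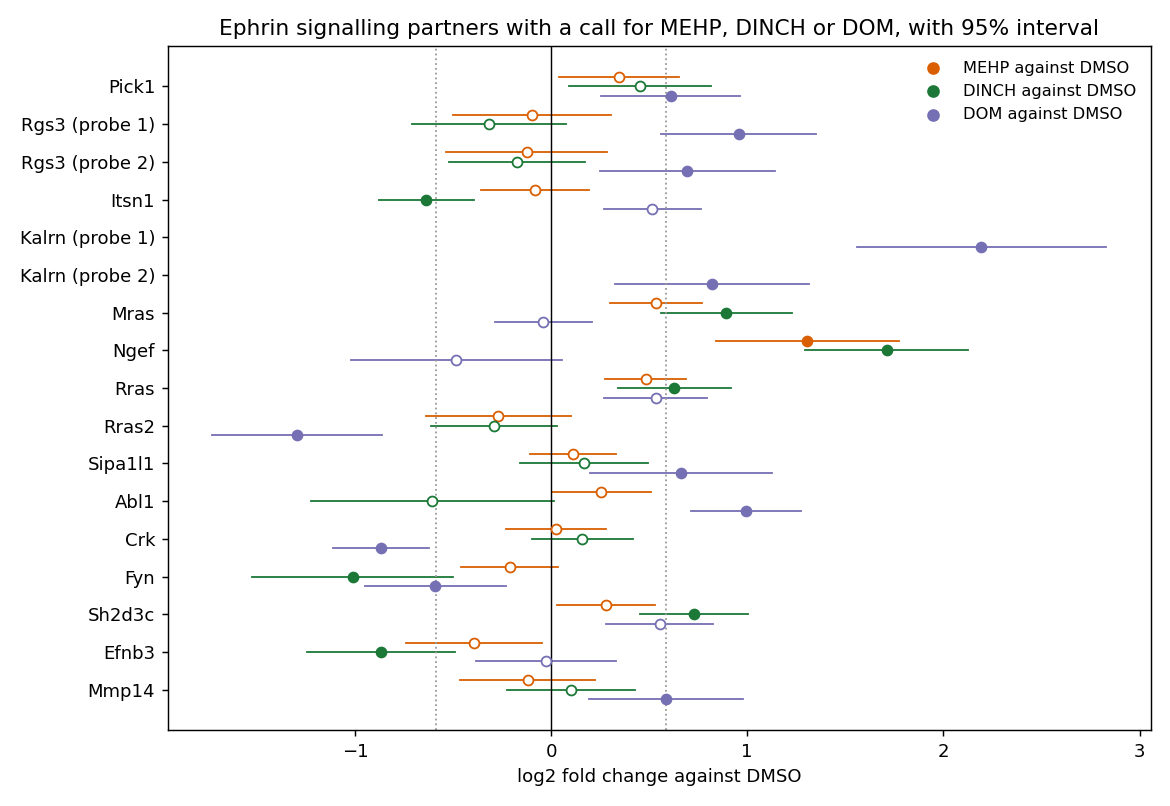
Log2 fold change against DMSO (x axis) with its 95% interval for each probe of a signalling or family gene called with MEHP, DINCH or DOM. Filled points passed the call, open points were tested and did not pass, absent points were not tested, and dotted lines mark 1.5-fold. Ngef is highest with DINCH (1.71) and MEHP (1.31), and Rras2 lowest with DOM (-1.29).

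With DOM 2 of 15 Sertoli cell markers were called, Sox9 lower and Inhbb higher, beside 20.5% of tested named genes. The other 13 were not called, and of these Wt1, Fshr and Cldn11 were above background on no array. Of 6 mesenchymal markers 1 was called, Pdgfra, which was higher. No marker of Leydig cells, germ cells, endothelial cells or macrophages was called with DOM. The summed linear level of the 15 Sertoli cell markers, in multiples of the 75th percentile, ranged from 41.4 to 68.2 over DOM arrays and from 12.6 to 26.5 over DMSO arrays. Inhbb carried most of this sum, and without it the other 14 summed to 2.56 to 3.70 with DOM and 2.56 to 2.93 with DMSO. With DINCH the sum of all 15 was 8.80 to 15.9 and with MEHP 10.2 to 19.4. For the 6 mesenchymal markers the sum was 248 to 304 with DMSO, 282 to 306 with DOM, 246 to 280 with DINCH and 222 to 244 with MEHP. The MEHP arrays thus lay below both the DMSO and the DINCH arrays in the mesenchymal sum. Col1a1 was its largest part, and without it the other 5 summed to 113 to 133 with MEHP and 117 to 149 with DMSO, which overlapped. With DINCH these 5 summed to 141 to 156, still above MEHP. With DOS the sum of all 6 was 365 to 410, above all DMSO arrays. The part of these markers in the differences of Efna4, Efna5 and Efnb2 was not tested.

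The genes most like the 3 called members were found by Pearson's r of the level over the 23 arrays among 11158 named genes. These arrays share controls and treatments, so r is a description. For Efnb2 they were Il34 (r = 0.92) and Pum3 (r = 0.90), for Efna4 they were Sfxn3 and Sphk1 (both r = 0.93), and for Efna5 they were Cmip (r = 0.91) and Pja2 (r = 0.90).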

How the data were processed

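RNA from 23 TM4 samples in 6 groups was labelled with Cy3 and hybridized to 1-colour Agilent arrays, grouped here by the labelled agent. Spot intensity was deposited as extracted by the authors with Feature Extraction 11.5.1.1, after background subtraction and on a linear scale, not scaled between arrays. A second deposited table held the authors' log2 values after a 75th percentile shift and centring on each probe's median, and served as an alternative. Each of its columns correlated with its own array at r of 0.9996 or more.

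The processed signal of an array (floor 1) was scaled to the 75th percentile over its 59305 non-control spots, then log2 transformed, and outlier spots (102 to 187 an array) were left out. Probes were named by RefSeq accession through a gene table (GRCm38.p6), which matched 26582 of 55681 probes. The files hold no probe sequences, and the array was designed on another build, so no probe positions are given. Testing required that 1 of the groups compared had the probe well above background, and not below the array's 20th percentile, on each of its arrays. Tests used limma 3.58.1 in R 4.3.3, with Benjamini-Hochberg adjustment over all tested probes. A lower limit sets the bright group's mean against, on each dim array, the higher of the probe's own signal and the lowest signal well above background. Promoter letters came from RefSeq windows of 300 bases, and figures from Python 3.11.15 with matplotlib 3.10.9.

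The members, the lists and the tests were chosen with earlier results of these data known. Named genes were all 10 members, every list gene called in a comparison, and the 2 genes most alike to each called member. Replicate numbers were shared between groups. Every same-numbered pair correlated above 0.1 in its deviations from the group means for DINCH (0.16 to 0.56), BDB (0.31 to 0.46), DOS (0.25 to 0.51) and DOM against DOS (0.12 to 0.44). Arrays of the same number often shared a slide, as did all of replicate 1 (slide 1) and all of replicate 4 (slide 3). Pairing by number and a shared slide thus cannot be told apart in these correlations. The main tests were unpaired, and a block for replicate number was run only as an alternative. For the other comparisons the lowest correlation was between -0.22 and 0.06. The number of arrays limits the precision. In simulations with independent normal noise, 200 probes well above background on all arrays changed by 1 log2 unit. The share recovered was 67.5% in the DOS design and 76.5% (BDB) to 81% (DINCH) in the others. Efna4 and Efna5 changed by less than 1 log2 unit with DOM, and the number of probes that truly changed is not known. These shares thus hold for the simulated setting and do not say how many real changes were found.

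Alternatives were quantile normalization, normexp (offset 50), no dim-probe filter, detection on 1 array, a fit of all groups together, a block for slide, slide row or replicate number, keeping outlier spots, brightest probes only, a variance trend, the authors' table and leaving out each array. Restriction to arrays with every extraction measure in range was added after seeing the data. A change of sign was not counted as a reversal where both 95% intervals held 0.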

Additional observations from a re-analysis of the deposited data

Results flagged for a closer look

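In 50 sets of 4 arrays, 1 gene in 1 group each, the gap between an extreme array and its neighbour was compared with the range of the group (Dixon's 95% limit). Chance marks about 1 in 20 sets, and 2 were marked here. Ephb3 in DMSO replicate 3 was the lowest at 6.26, with the next DMSO array at 6.45 and a gap of 0.870 of the range. Ephb2 in DOM replicate 1 was the lowest at -1.21, with the next DOM array at -0.67 and a gap of 0.845 of the range. Neither gene was called in any comparison.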

How the results depend on the processing

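Members called with BDB, with DOS and between DOM and DOS stayed at 0 under every alternative run. The slide row block was run for DOM and DOS and the direct pairs alone, since the other compounds shared no row with DMSO. With DINCH the count was 1 under all alternatives run except over arrays with every extraction measure in range, where it was 0 and 3 named genes in all were called. With DOM, where it was 2, it became 0 with normexp and 0 without the filter on dim probes, and 1 with the slide as a block, and leaving out 1 array gave 1 to 3, the 1 being Efna4 without DOM replicate 4. Such fits also called Epha2 (without DOM replicate 1), the second Ephb4 probe (without DOM replicate 3 or DMSO replicate 4) and the dim Efnb2 probe (without DMSO replicate 1). Over the arrays in range the count with DOM was 2, with Efna5 lost and the second Ephb4 probe called. With MEHP it became 1, Efnb2, with normexp, with brightest probes only and with a variance trend, and leaving out 1 array gave 0 to 1, with the 1 without DMSO replicate 1. Between MEHP and DINCH it became 0 without the filter on dim probes and 0 over the arrays in range. The replicate block changed no call of a member: the limma adjusted p of Efnb2 with DINCH was 0.00632 with the block, and that of Efna4 and Efna5 with DOM 0.00828 and 0.0235. Of 1278 member values under alternatives, by brightest probes, 0 reversed, 13 lost the call and 5 gained it, and 60 changed sign with both intervals holding 0. The change of Efnb2 with DINCH ranged from -1.71 to -1.36, that of Efna4 with DOM from 0.55 to 0.80 and that of Efna5 with DOM from 0.47 to 0.72. The cause of these shifts was not tested. Signal over background limited Epha4 and the dim Efnb2 probe.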
